A study of Mus musculus with 26 samples.

Results

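The cyclins and cyclin-dependent kinase (CDK) inhibitors described here were 10 genes taken by symbol from the table of counts. They were the D-type cyclin genes Ccnd1, Ccnd2 and Ccnd3, the E-type cyclin genes Ccne1 and Ccne2, the A-type and B-type cyclin genes Ccna2 and Ccnb1, and the inhibitor genes Cdkn1b, Cdkn2a and Cdkn2b. They made up 10 of the 55291 genes in the table. All 10 passed the filter on low counts, which left 20953 genes in the tests.

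Cyclins are the regulatory partners that switch CDKs on at successive steps of the division cycle. D-type cyclins bind CDK4 and CDK6 and start the phosphorylation of the retinoblastoma protein, E-type cyclins with CDK2 drive entry into S phase, cyclin A acts through S phase and G2, and cyclin B with CDK1 drives mitosis. Cdkn1b encodes p27Kip1, which binds cyclin-CDK complexes, Cdkn2b encodes p15Ink4b, which binds CDK4 and CDK6, and Cdkn2a encodes both p16Ink4a and, from another first exon, p19Arf, an inhibitor of MDM2. Mouse embryonic stem cells divide fast with a short G1 phase, and are known for high cyclin E activity and low levels of these inhibitors.

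Bulk polyA RNA-seq was carried out on R1 mouse embryonic stem cells (mESCs) grown with leukemia inhibitory factor on gelatin, in 13 groups of 2 libraries each. The untreated cells (ESC) and the cells given the solvent (DMSO) were wild type, as were the cells given 0.53 μM retinoic acid for 48 h (RA), those given 4 nM of the splicing inhibitor pladienolide B for 4 days (PlaB), and those given 4 μg/mL doxycycline for 24 h to induce ZSCAN4 (Zscan4 OE), DUX (Dux OE) or the mutant DUXR70A (DuxR70A OE). Cells with a Dux knockdown (Dux KD) were given RA, PlaB or ZSCAN4 overexpression, and cells lacking a super-enhancer (SE KO), the one near the Tdpoz genes according to the study's text, were given RA, PlaB or DUX overexpression. The question was how far DUX and the super-enhancer are needed for these routes into a state like that of the 2-cell embryo.

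Several features limit these groups. Untreated Dux KD or SE KO cells are not analysed here, so an effect of the genotype alone and a changed response to the treatment cannot be told apart. The ESC cells are labelled as untreated, so doxycycline and the induced protein cannot be told apart in the comparisons with ESC. The same DMSO group, whose names give no duration, is the control for both 48 h of RA and 4 days of PlaB. It cannot match both in time, so drug and time in culture are not separated in these comparisons. The 2 Dux KD Zscan4 OE libraries are labelled as having no treatment, with the overexpression given in their names alone. Zscan4c had 12 and 15 counts in them, against 1545 and 1897 in Zscan4 OE and 92 and 92 in ESC. Whether reads from an introduced ZSCAN4 sequence would be counted under Zscan4c is not given in the sources used here. A knockdown effect and a lack of induction therefore cannot be told apart in these libraries. One SE KO RA library, replicate 1, is SE KO by name and wild type by its genotype label, and it was kept with its name. Whether each edited line was 1 clone is not given in the sources used here. The study calls the 2 libraries biological replicates for the RA and Dux OE comparisons of the SE knockout. For the other groups the labels give replicate numbers only. All 26 libraries were fitted together, so every p-value rests on a spread between libraries pooled over the 13 groups. That spread may be technical in part or in whole.

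Total counts ran from 14401452 to 39402840 per library with a median of 18276934, at which 3 counts correspond to 0.0796 to 0.226 CPM (counts scaled to one common library size). The knockdown target was read from Duxf3, the gene of the Dux repeat in the table, which had 191 and 181 counts under PlaB, 49 and 59 under RA and 27 and 17 with ZSCAN4, against 16 and 6 in Dux KD RA and 1 and 0 in either other knockdown group. It had 55 and 48 counts in Dux OE and 55 and 39 in SE KO Dux OE, but 0 and 0 in DuxR70A OE. Whether reads from the introduced DUX sequences would be counted under Duxf3 is not given in the sources used here, so this gene does not settle whether the mutant was expressed. The floor and its range cover counting error only. The summed level of 8 markers of 2-cell-like cells was between 0.537 and 7253 CPM, with 0 to 2 of the 8 at no count in a group. It was 7186 and 7253 in PlaB but 5.07 and 5.62 in Dux KD PlaB, with 5.16 and 3.07 in DMSO. The 7 mESC markers summed to 2839 to 6748 CPM and none was at 0 in any group, whereas the 10 fibroblast markers summed to 27.8 to 192 CPM, with 0 to 4 of them at no count in a group. The fibroblast sum was highest in SE KO RA, where Pdgfrb alone gave 111 and 104 CPM of it and Lum, Dcn and Col3a1 had no count. Of these markers Postn had 437 and 432 counts in SE KO Dux OE against 0 to 3 in every other library. Col3a1 and Col1a2 were highest in SE KO Dux OE as well, at 116 and 130 and at 733 and 622 counts. The sum and single markers thus rank the groups differently, so a high sum alone does not show more fibroblasts. The PlaB libraries stood apart from the rest, as did both genotypes given PlaB from PlaB itself, and each such result is read against the large share of all tested genes that differed. In bulk RNA, fewer cells of a type and less RNA per cell cannot be told apart.

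Levels below are CPM scaled by TMM (trimmed mean of M-values) factors, given for both libraries of a group or as the mean ± SD (n = 2). A gene was called changed when the adjusted p was below 0.05 and the log2 fold change was at least 1 in size. In the GENCODE annotation of mm10, exons of Ccna2, Ccne2, Ccnd1, Ccnd2 and Ccnd3 overlap exons on the opposite strand, of Exosc9, Ints8, LTO1, 9330179D12Rik with Gm43126, and Bysl, respectively, and the exons of the other 5 genes overlap none. The strand setting of the counting is not given in the sources used here, so reads in these overlaps cannot be assigned with certainty.

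**Figure D1:**
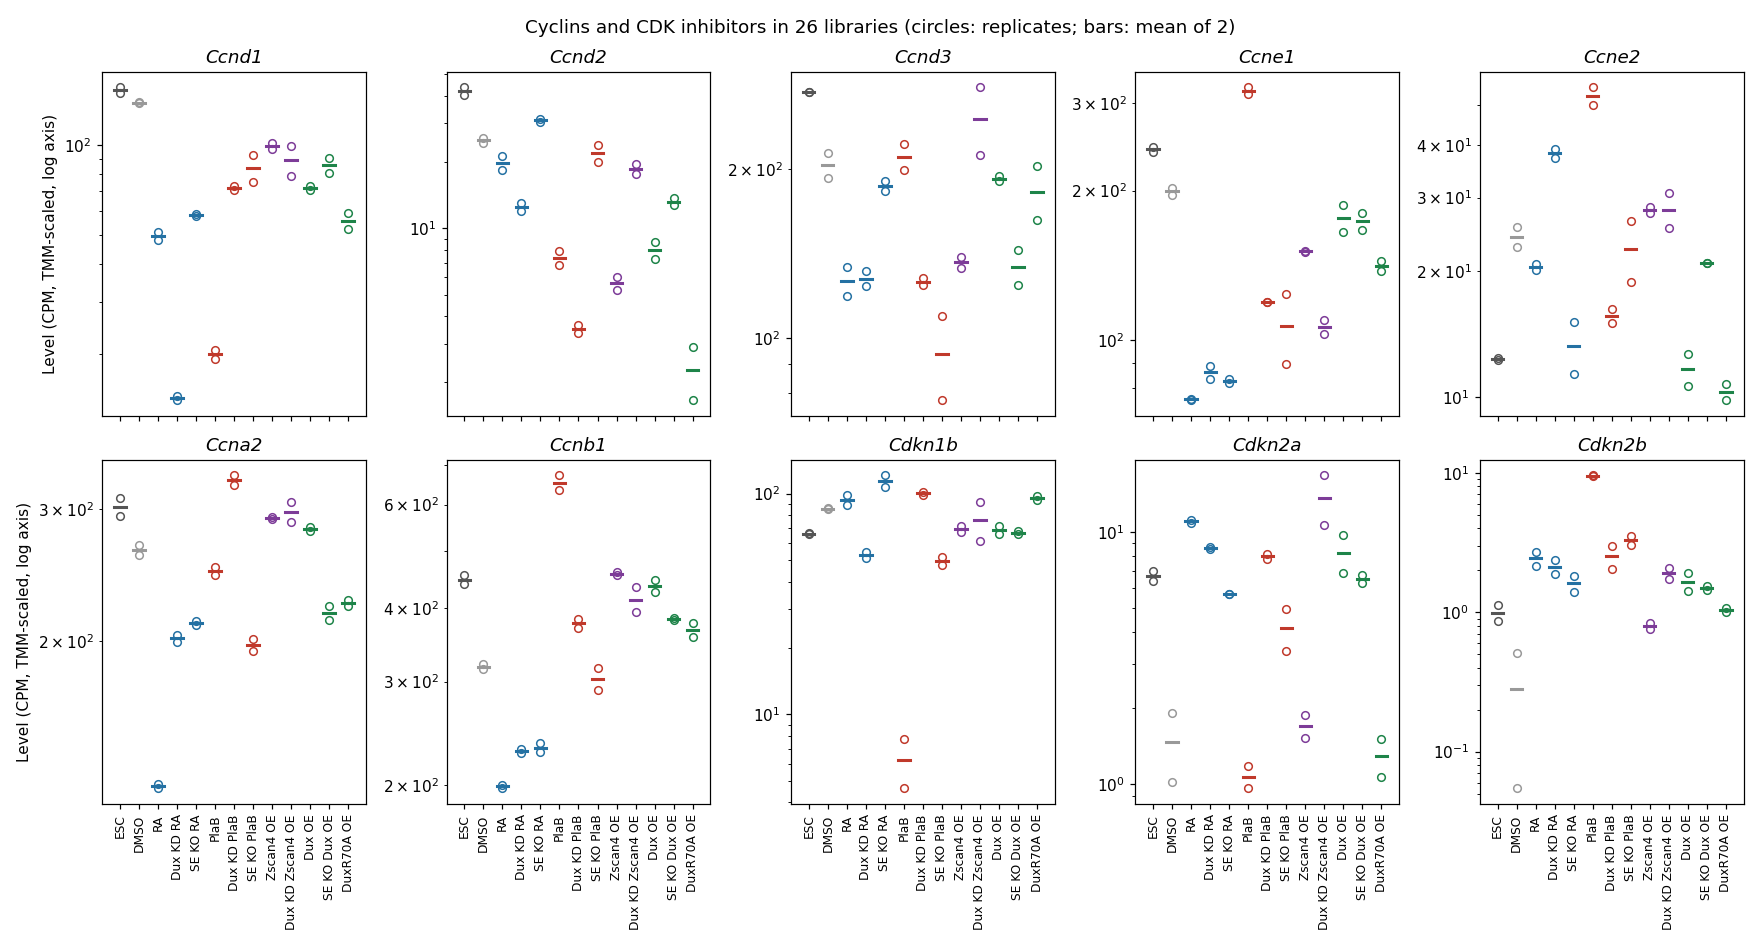
Level of each of the 10 genes (CPM, TMM-scaled, log axis) in the 13 groups, with circles for the 2 replicates and bars for their mean. Cdkn1b falls to 6.20 CPM in PlaB while Cdkn2b reaches its highest level there, 9.51 CPM, and Ccnd1 and Ccnd2 are highest in ESC.

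The D-type cyclins were highest in untreated cells. Ccnd1 (chr7:144929931-144939925, minus strand, mm10) was 156 and 149 CPM in ESC and 138 and 139 in DMSO. It was 96.8 and 102 in Zscan4 OE, 72.9 and 70.5 in Dux OE, 59.1 and 52.3 in DuxR70A OE and 48.1 and 51.05 in RA. All 11 other groups lay below both control groups. The lowest levels were those of PlaB, with 20.7 and 19.2, and of Dux KD RA, with 14.1 and 14.5. The ratio of the highest to the lowest group mean was 10.7. In the order of the 13 groups, 5 of the 12 neighbouring pairs overlapped between libraries and none of those pairs lay among the 2 highest or the 3 lowest groups.

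Ccnd2 (chr6:127125162-127152193, minus strand) spanned a wider range, 18.4 between its extremes. It was 43.6 and 40.2 CPM in ESC, 31.5 and 30.5 in SE KO RA, 25.7 and 24.5 in DMSO, 23.9 and 19.96 in SE KO PlaB and 21.3 and 18.4 in RA. At the low end it was 7.90 and 6.85 in PlaB, 5.24 and 6.03 with ZSCAN4, 3.66 and 3.35 in Dux KD PlaB and 1.67 and 2.89 in DuxR70A OE, the last from 31 and 46 counts. No 2 of these 4 low groups overlapped. Ccnd2 was thus the D-type cyclin with the largest spread, and the order of its groups was unlike that of Ccnd1, with Dux KD RA at 13.1 and 12.02 in the middle.

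Ccnd3 (chr17:47505051-47599691, plus strand) moved least of these 3 genes, with a ratio of 2.92 between ESC at 273 and 274 CPM and SE KO PlaB at 77.7 and 109.6. It was 221 and 199 in PlaB and 193 and 214 in DMSO, which overlapped, and 10 of its 12 neighbouring pairs overlapped. The replicates of Dux KD Zscan4 OE were far apart at 279 and 211.

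Per length of exon, Ccnd1 and Ccnd3 were present at similar levels in ESC, with 32.3 ± 1.02 and 31.2 ± 0.0352 CPM per kb, and Ccnd2 at 4.45 ± 0.256. Of the summed D-type level per length, Ccnd3 made up 45.9% ± 0.892 in ESC and 41.9% ± 1.76 in DMSO. The share of Ccnd3 was 82.6% ± 0.221 in PlaB and 76.9% ± 0.85 in Dux KD RA, where Ccnd1 was at 14.7% ± 0.295 and 16.05% ± 0.191. In Dux KD PlaB and SE KO PlaB the share of Ccnd1 was 50.9% ± 0.0162 and 57.9% ± 0.776, close to its 53.3% ± 1.46 in DMSO. Ccnd3 was at 47.9% ± 0.115 and 34.4% ± 2.96 there. Per length, the D-type gene with the largest share thus differed between PlaB and both genotypes given PlaB. By CPM, Ccnd3 stayed above Ccnd1 in both, at means of 126 against 71.8 and 93.7 against 83.9. The order in these 2 groups thus depends on the exon lengths used.

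The E-type cyclin genes were both highest in PlaB. Ccne1 (chr7:38097984-38107534, minus strand) was 322 and 313 CPM in PlaB, 244 and 239.5 in ESC and 196 and 202 in DMSO. Its lowest groups were those given RA, at 75.9 and 76.3 in RA, 81.9 and 83.7 in SE KO RA and 88.9 and 83.8 in Dux KD RA. These 3 groups lay close together and below the other 10. Dux KD PlaB at 119.6 and 119 and SE KO PlaB at 89.4 and 124 were below DMSO as well.

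Ccne2 (chr4:11191351-11204779, plus strand) was 49.8 and 55.04 CPM in PlaB and 39.2 and 37.4 in Dux KD RA, and both groups lay above all others. It was 25.5 and 22.9 in DMSO but 12.4 and 12.3 in ESC, so that the untreated cells were among the lowest groups. Dux OE at 10.6 and 12.6 and DuxR70A OE at 9.83 and 10.7 overlapped each other. Per length, Ccne1 exceeded Ccne2 in all groups, and Ccne2 made up between 3.74% ± 0.0241 (ESC) and 25.3% ± 0.131 (Dux KD RA) of the summed E-type level.

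Ccna2 (chr3:36564865-36572150, minus strand) had the narrowest range of the 10 genes, 2.56, from 333 and 323 CPM in Dux KD PlaB to 128 and 129 in RA. It was 310.2 and 293 in ESC, 268 and 260.2 in DMSO and 245 and 251 in PlaB. Under RA the knockdown and the knockout were both above the wild type, at 199.5 and 204 in Dux KD RA and 213 and 210.3 in SE KO RA.

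Ccnb1 (chr13:100778650-100786570, minus strand) had the highest CPM of the 10 genes in PlaB, at 672 and 636 CPM. It was 439 and 455 in ESC and 315 and 321 in DMSO, and lowest in RA at 200.2 and 198. Dux KD RA at 226 and 230.3 and SE KO RA at 228 and 236 overlapped each other and stayed above RA. Over the 13 group means, Ccnb1 and Ccne1 had the highest correlation of any pair of the 10 genes (Pearson r = 0.843), over groups that include 3 given PlaB and 3 given RA.

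The starts of 6 of the 10 genes had an entry in the RefSeq promoter table, namely Ccnb1, Ccne1, Ccnd3, Cdkn1b, Cdkn2a and Cdkn2b. Those of Ccnb1 and Ccne1 are shown first, because these genes moved together across groups. They run on the gene's own strand (GRCm38.p6) up to the base before the start used here. Where a GENCODE start of the gene lay close upstream of the RefSeq start, the outermost such start was used. For Ccnb1 this left 166 bases, and the bases between its 2 starts were not searched. Capitals mark matches on either strand to TTTNNCGC (E2F), TTTGAA (the cell cycle homology region, CHR), CCAAT, or AGGTCA (a nuclear receptor half-site), and no 2 matches overlapped. In the 200 bases before the RefSeq start, without this shift, these motifs occur in 3.53%, 12.5%, 29.3% and 11.4% of 32851 promoters.
Ccnb1, chr13:100786571-100786736, minus strand: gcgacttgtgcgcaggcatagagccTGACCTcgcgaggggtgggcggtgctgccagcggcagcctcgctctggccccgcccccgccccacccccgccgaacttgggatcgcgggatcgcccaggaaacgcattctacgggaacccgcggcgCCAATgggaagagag
Ccne1, chr7:38107535-38107734, minus strand: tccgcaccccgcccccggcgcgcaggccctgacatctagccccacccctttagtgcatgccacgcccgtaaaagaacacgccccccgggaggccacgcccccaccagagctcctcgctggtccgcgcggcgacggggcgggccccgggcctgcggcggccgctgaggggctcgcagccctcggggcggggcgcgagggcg
The 166 bases of Ccnb1 hold 1 CCAAT match and 1 AGGTCA match (as its reverse complement), and the 200 bases of Ccne1 hold none of the 4 motifs, so they share no searched motif in these windows.

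The CDK inhibitors spanned wide ranges, with ratios of 12.7 (Cdkn2a), 18.3 (Cdkn1b) and 33.6 (Cdkn2b) between the highest and lowest group means. Cdkn1b (chr6:134920401-134925513, plus strand) had group means between 49.6 and 114 CPM in 12 of the 13 groups and was far lower in the remaining one. Its level was 4.65 and 7.76 CPM in PlaB, from 96 and 171 counts, against 84.8 and 85.9 in DMSO and 66.1 and 65.7 in ESC. It was 102 and 98.99 in Dux KD PlaB and 47.7 and 51.5 in SE KO PlaB. SE KO RA was the highest group at 107 and 121, while Dux KD RA was at 54.5 and 51.3.

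Cdkn2b (chr4:89306299-89311039, minus strand) went the other way and was highest in PlaB at 9.45 and 9.57 CPM. It was lowest in DMSO, at 0.511 and 0.0548 CPM, which rests on 9 and 1 counts. ESC was at 1.12 and 0.866, RA at 2.16 and 2.70, Dux KD PlaB at 3.01 and 2.03 and SE KO PlaB at 3.04 and 3.54. Of the pairs among the 10 genes, Cdkn1b and Cdkn2b had the most negative correlation over the 13 group means (Pearson r = -0.774), and the PlaB group holds an extreme of both.

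Cdkn2a (chr4:89274471-89294653, minus strand) lies next to Cdkn2b but followed another pattern (Pearson r = 0.0154 between them). It was 6.98 and 6.40 CPM in ESC but 1.02 and 1.92 in DMSO. Low levels were also found in Zscan4 OE at 1.88 and 1.52, DuxR70A OE at 1.07 and 1.51 and PlaB at 0.969 and 1.18, and these 4 low groups formed an unbroken run of overlapping neighbours. Dux OE at 6.85 and 9.67, RA at 11.1 and 10.8 and Dux KD Zscan4 OE at 16.7 and 10.6 were at the high end. The counts are per gene, so transcripts for p16Ink4a and p19Arf were not told apart. Per length, Cdkn1b at 14.5 ± 0.0667 CPM per kb exceeded Cdkn2a at 5.71 ± 0.348 and Cdkn2b at 0.715 ± 0.13 in ESC, whereas in PlaB Cdkn2b led with 6.84 ± 0.0659 against 1.36 ± 0.483 for Cdkn1b.

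The promoters of the inhibitors are shown because Cdkn1b was lowest and Cdkn2b highest in the same group. Cdkn2a has 2, one for each first exon, and the windows and capitals are as above.
Cdkn1b, chr6:134920201-134920400, plus strand: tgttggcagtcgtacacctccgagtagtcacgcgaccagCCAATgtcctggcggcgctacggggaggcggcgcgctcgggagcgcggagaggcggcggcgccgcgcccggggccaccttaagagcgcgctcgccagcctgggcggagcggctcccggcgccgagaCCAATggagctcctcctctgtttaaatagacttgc
Cdkn2b, chr4:89311040-89311239, minus strand: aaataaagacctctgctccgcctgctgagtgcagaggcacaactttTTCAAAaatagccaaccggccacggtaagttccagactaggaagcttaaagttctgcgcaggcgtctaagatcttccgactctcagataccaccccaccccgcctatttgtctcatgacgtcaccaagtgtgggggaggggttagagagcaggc
Cdkn2a (p19Arf start), chr4:89294654-89294853, minus strand: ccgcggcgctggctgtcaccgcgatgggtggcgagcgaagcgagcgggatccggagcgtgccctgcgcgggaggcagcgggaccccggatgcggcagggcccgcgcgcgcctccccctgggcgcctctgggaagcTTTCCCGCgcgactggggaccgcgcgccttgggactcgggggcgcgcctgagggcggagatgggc
Cdkn2a (p16Ink4a start), chr4:89282193-89282392, minus strand: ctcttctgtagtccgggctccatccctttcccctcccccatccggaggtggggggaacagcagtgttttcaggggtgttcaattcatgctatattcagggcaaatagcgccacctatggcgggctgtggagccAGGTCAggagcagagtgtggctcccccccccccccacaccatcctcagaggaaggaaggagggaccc
Cdkn1b holds 2 CCAAT matches, Cdkn2b 1 CHR match, the p19Arf start 1 E2F match and the p16Ink4a start 1 AGGTCA match. No searched motif occurs in more than 1 of these 4 windows, and a match is a string of letters that was not tested for binding.

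**Figure D2:**
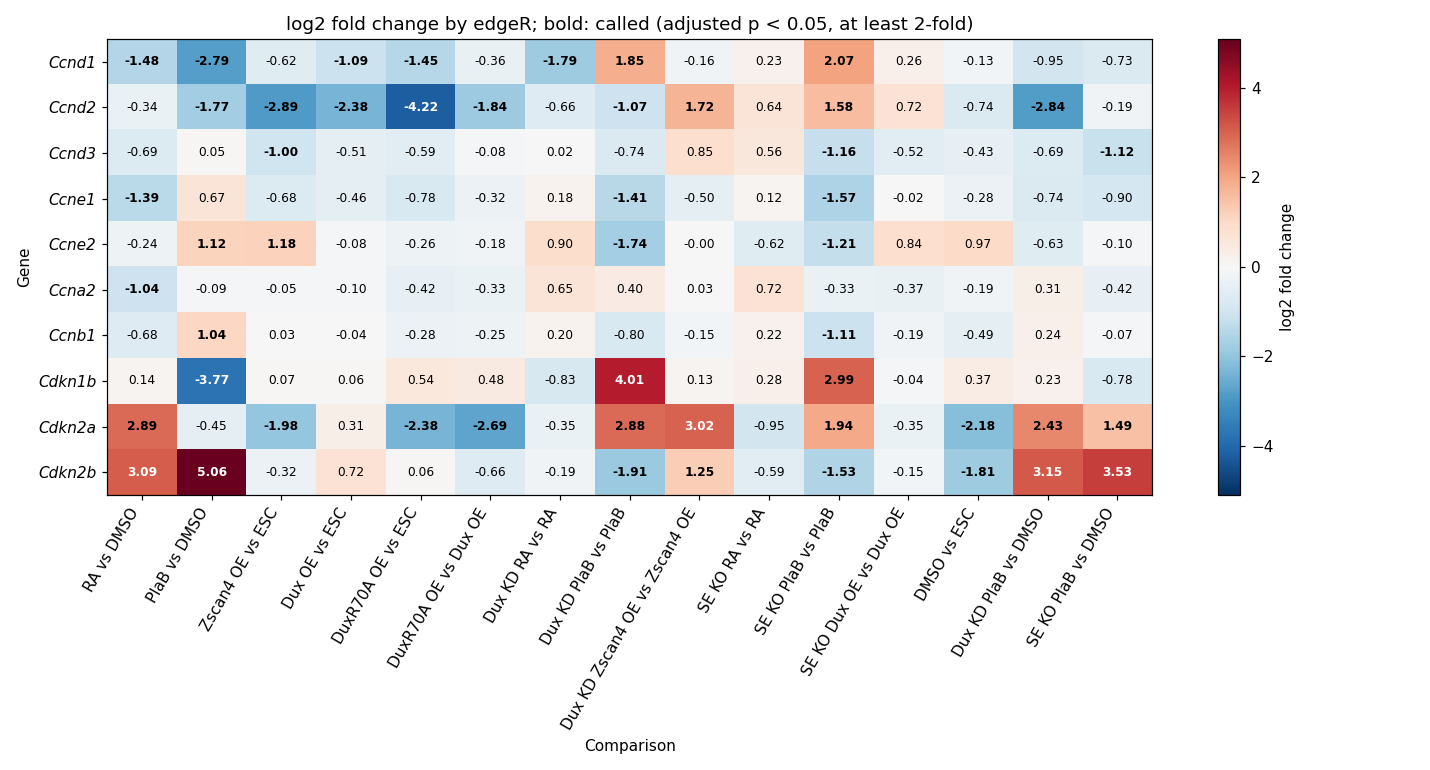
log2 fold change of the 10 genes (rows) in 15 comparisons (columns), from edgeR, with red for higher and blue for lower in the first-named group and bold for called values. Cdkn1b shows -3.77 in PlaB against DMSO and 4.01 in Dux KD PlaB against PlaB, and no gene is called in SE KO RA against RA or SE KO Dux OE against Dux OE.

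RA cells held less transcript of cyclins of 3 classes than DMSO cells, and more of the inhibitor genes Cdkn2a and Cdkn2b. Against DMSO, Ccnd1 fell 2.80-fold (log2 fold change -1.48 ± 0.10 (SE), adjusted p = 1.22e-12), Ccne1 fell 2.62-fold (log2 fold change -1.39 ± 0.10 (SE), adjusted p = 3.46e-12) and Ccna2 fell 2.06-fold (log2 fold change -1.04 ± 0.066 (SE), adjusted p = 3.42e-13). Cdkn2a rose (log2 fold change 2.89 ± 0.26 (SE), adjusted p = 3.15e-10) and so did Cdkn2b (log2 fold change 3.09 ± 0.43 (SE), adjusted p = 6.88e-07). The Ccna2 call was lost when scaled by library size only (-0.85). These were 5 of the 10 genes called, where 31% of all tested genes were called. The log2 fold changes of Ccnb1 (-0.68 ± 0.071), Ccnd3 (-0.69 ± 0.13) and Ccnd2 (-0.34 ± 0.13) passed the adjusted p but were below 2-fold, and those of Ccne2 and Cdkn1b, at -0.24 and 0.14, did not pass.

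The 2 control groups differed at 16.2% of tested genes, and Cdkn2a and Cdkn2b were among them. In DMSO against ESC, Cdkn2a (log2 fold change -2.18 ± 0.28 (SE), adjusted p = 3.58e-07) and Cdkn2b (log2 fold change -1.81 ± 0.52 (SE), adjusted p = 0.00536) were the 2 of 10 genes called, both lower. The second call was lost without ESC replicate 1 (-1.61) or DMSO replicate 2 (-0.96), was -4.03 without DMSO replicate 1, and Ccne2 (0.97) came to 1.05 without DMSO replicate 2, past the threshold. With ESC as the control, the RA value of Cdkn2a was 0.71, no longer called, and that of Cdkn2b was 1.28, still called, while Ccnb1 (-1.17), Ccnd2 (-1.07) and Ccnd3 (-1.12) were then called lower. Without DMSO replicate 1, which leaves a library with 1 count, the RA value of Cdkn2b was 5.31, and without DMSO replicate 2 it was 2.23. In the RA libraries the 10 differentiation markers summed to 221 and 234 CPM against 45.7 and 44.6 in DMSO, and the 10 fibroblast markers to 144 and 163 against 62.6 and 63.5, with the part of either in these results not tested.

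PlaB cells held less transcript of the D-type cyclins Ccnd1 and Ccnd2 and the inhibitor Cdkn1b than DMSO cells, and more of Ccnb1, Ccne2 and Cdkn2b. Against DMSO, Cdkn1b fell 13.7-fold (log2 fold change -3.77 ± 0.16 (SE), adjusted p = 1.35e-17), with both PlaB libraries far below both DMSO libraries. Ccnd1 fell 6.94-fold (log2 fold change -2.79 ± 0.11 (SE), adjusted p = 1.22e-18) and Ccnd2 3.41-fold (log2 fold change -1.77 ± 0.15 (SE), adjusted p = 1.79e-11). Cdkn2b rose (log2 fold change 5.06 ± 0.38 (SE), adjusted p = 2.25e-12), as did Ccne2 (log2 fold change 1.12 ± 0.14 (SE), adjusted p = 3.32e-08) and Ccnb1 (log2 fold change 1.04 ± 0.070 (SE), adjusted p = 2.42e-13). These 6 calls among 10 genes compare with 58.9% of all tested genes, so the share of members called was near the background. Ccne1 (0.67 ± 0.10) passed the adjusted p below 2-fold, and Ccna2, Ccnd3 and Cdkn2a were at -0.092, 0.047 and -0.45.

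The size of the Cdkn2b rise depended on the control. It was 3.25 against ESC, 7.28 without DMSO replicate 1 and 4.20 without DMSO replicate 2, and called each time. The Ccnb1 call was borderline and was lost without PlaB replicate 1 (0.999), without the low-count filter (0.87) and against ESC (0.55). That of Ccne2 was lost without the filter (0.95). Against ESC the Cdkn2a value was -2.63 and called, the Ccne2 value was 2.09, and the Ccnd2 value was -2.51. The 2-cell-like markers, given above, moved with this treatment, and their part in these results was not tested.

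**Figure D3:**
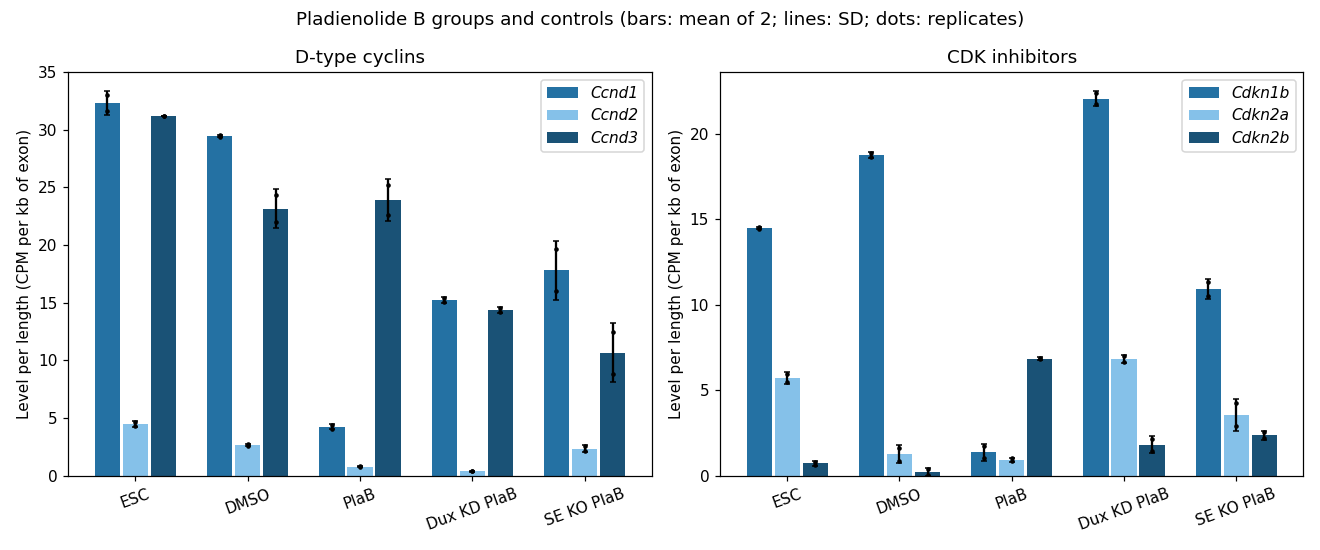
Level per length (CPM per kb of exon) of the 3 D-type cyclins and the 3 CDK inhibitors in ESC, DMSO and the 3 PlaB groups, with bars for the mean of 2 libraries, lines for the SD and dots for the libraries. In PlaB, Ccnd3 stands far above Ccnd1 and Cdkn2b above Cdkn1b, whereas in Dux KD PlaB and SE KO PlaB Ccnd1 exceeds Ccnd3 and Cdkn1b exceeds Cdkn2b.

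Dux KD PlaB cells held more Cdkn1b, Cdkn2a and Ccnd1 transcript than PlaB cells and less of Cdkn2b, Ccnd2 and both E-type cyclins. Against PlaB, Cdkn1b rose 16.1-fold (log2 fold change 4.01 ± 0.16 (SE), adjusted p = 4.42e-18), Cdkn2a 7.38-fold (log2 fold change 2.88 ± 0.28 (SE), adjusted p = 3.75e-10) and Ccnd1 3.59-fold (log2 fold change 1.85 ± 0.11 (SE), adjusted p = 1.2e-14). Cdkn2b (log2 fold change -1.91 ± 0.27 (SE), adjusted p = 5.34e-07), Ccne2 (log2 fold change -1.74 ± 0.14 (SE), adjusted p = 1.34e-11) and Ccne1 (log2 fold change -1.41 ± 0.10 (SE), adjusted p = 5.14e-13) fell. Ccnd2 was lower as well (log2 fold change -1.07 ± 0.18 (SE), adjusted p = 7.55e-06), and this call was lost without PlaB replicate 1 (-0.97) or without the low-count filter (-0.93). These 7 calls stand beside 54.9% of all tested genes. This comparison and that of PlaB with DMSO share the PlaB libraries. The 2-cell-like markers, at the level of DMSO in Dux KD PlaB, moved with these genes, and their part was not tested.

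SE KO PlaB gave 9 calls among the 10 genes, beside 52% of all tested genes. Cdkn1b rose 7.95-fold (log2 fold change 2.99 ± 0.16 (SE), adjusted p = 2.72e-15), Ccnd1 4.20-fold (log2 fold change 2.07 ± 0.11 (SE), adjusted p = 8.84e-16), Cdkn2a 3.84-fold (log2 fold change 1.94 ± 0.29 (SE), adjusted p = 1.12e-06) and Ccnd2 2.98-fold (log2 fold change 1.58 ± 0.15 (SE), adjusted p = 1.95e-10). Ccne1 (-1.57 ± 0.10), Cdkn2b (-1.53 ± 0.26), Ccne2 (-1.21 ± 0.14), Ccnd3 (-1.16 ± 0.13) and Ccnb1 (-1.11 ± 0.070) fell on the log2 scale, with adjusted p between 5.05e-14 and 7.05e-06. By chi-square per degree of freedom (30.2) the replicates of SE KO PlaB differed most of all groups, although their Pearson r on log2 CPM (0.986) was not the lowest. The calls of Ccnd3 (-0.93) and Ccne2 (-0.99) were lost without replicate 1 and replicate 2, respectively, and that of Ccnb1 (-0.97) without the low-count filter. The 2-cell-like markers summed to 583 and 481 CPM in SE KO PlaB, between PlaB and DMSO, and their part was not tested.

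Comparisons of these groups with DMSO were added after the data were seen. In Dux KD PlaB against DMSO, Cdkn2a (log2 fold change 2.43 ± 0.27 (SE), adjusted p = 8.22e-08) and Cdkn2b (log2 fold change 3.15 ± 0.44 (SE), adjusted p = 2.7e-06) were higher and Ccnd2 (log2 fold change -2.84 ± 0.17 (SE), adjusted p = 6.03e-13) was lower, 3 calls of 10 beside 11.7%. In SE KO PlaB against DMSO, Cdkn2a (1.49 ± 0.28) and Cdkn2b (3.53 ± 0.42) were again higher and Ccnd3 (-1.12 ± 0.13) was lower, 3 calls beside 28.1%. Cdkn1b gave 0.23 and -0.78 and was not called in either. The mean level of Cdkn2a was 1.47 CPM in DMSO but 6.69 in ESC, against 7.99 in Dux KD PlaB and 4.16 in SE KO PlaB. The size of its rise, and in SE KO PlaB the direction, thus depends on the control. No test of these groups against ESC is given. Without DMSO replicate 1 the Cdkn2b values were 5.37 and 5.75, and without replicate 2 they were 2.29 and 2.67. Without SE KO PlaB replicate 1 the Ccnd3 value was -0.88 and not called, and without replicate 2 that of Ccne1 was -1.16 and called.

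In each of the 3 groups labelled as overexpressing ZSCAN4, DUX or DUXR70A Ccnd2 was lower than in ESC, while Ccna2, Ccnb1, Ccne1, Cdkn1b and Cdkn2b gave no call. In Zscan4 OE against ESC, Ccnd2 was 7.40-fold lower (log2 fold change -2.89 ± 0.15 (SE), adjusted p = 1.29e-13), Cdkn2a 3.95-fold (log2 fold change -1.98 ± 0.27 (SE), adjusted p = 1.97e-06) and Ccnd3 2.01-fold (log2 fold change -1.004 ± 0.13 (SE), adjusted p = 5.75e-07), and Ccne2 was 2.27-fold higher (log2 fold change 1.18 ± 0.15 (SE), adjusted p = 5.36e-07). These were 4 of 10, beside 11.6% of tested genes. The Ccnd3 fold lay on the threshold, and its call was lost without Zscan4 OE replicate 1 (-0.97) and with RLE factors, library size only, no low-count filter, a fit of both groups alone and DESeq2 (between -0.996 and -0.85). In Dux OE against ESC, Ccnd2 was 5.22-fold lower (log2 fold change -2.38 ± 0.15 (SE), adjusted p = 9.75e-13) and Ccnd1 2.12-fold (log2 fold change -1.09 ± 0.10 (SE), adjusted p = 2.36e-09), 2 of 10 beside 9.51%. Doxycycline and the induced protein cannot be told apart in these comparisons.

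DUXR70A is a mutant that the study describes as deficient in phase separation. In the libraries labelled DuxR70A OE, which had no Duxf3 count, values were lower than in ESC for Ccnd2 by 18.7-fold (log2 fold change -4.22 ± 0.18 (SE), adjusted p = 1.55e-15), Cdkn2a by 5.22-fold (log2 fold change -2.38 ± 0.29 (SE), adjusted p = 1.31e-07) and Ccnd1 by 2.73-fold (log2 fold change -1.45 ± 0.10 (SE), adjusted p = 1.12e-11). These were 3 of 10, beside 16.9%. Set directly against Dux OE, Cdkn2a (log2 fold change -2.69 ± 0.28 (SE), adjusted p = 2.18e-08) and Ccnd2 (log2 fold change -1.84 ± 0.20 (SE), adjusted p = 4.69e-08) were lower in the libraries labelled DuxR70A OE, 2 of 10 beside 13.6%. Both of these libraries lay below both Dux OE libraries for these 2 genes. The difference of Ccnd1 between these groups was -0.36 ± 0.10, under 2-fold.

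The comparisons with ESC changed for Cdkn2a when DMSO took the place of ESC, and held for Ccnd2. Cdkn2a was then 0.19 in Zscan4 OE and -0.21 in DuxR70A OE, neither called, and 2.48 in Dux OE, called. Ccnd2 was -2.15, -1.65 and -3.48 in the same order, called in each. Ccnd1 in Dux OE was -0.95, just short of 2-fold. In Zscan4 OE the Ccne2 (0.21) and Ccnd3 (-0.57) calls were lost. Called with DMSO alone were Cdkn2b in Dux OE (2.54) and DuxR70A OE (1.87) and Ccne2 in Dux OE (-1.05) and DuxR70A OE (-1.24). The 2-cell-like markers summed to 247 and 255 CPM in Zscan4 OE, 3275 and 3375 in Dux OE and 0.537 and 0.691 in DuxR70A OE, with 22.9 and 19.7 in ESC, and their part in these results was not tested.

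In the knockdown and knockout groups outside PlaB fewer of the 10 genes were called than under PlaB, and so were fewer of all tested genes. Dux KD RA lowered Ccnd1 3.47-fold against RA (log2 fold change -1.79 ± 0.11 (SE), adjusted p = 6.04e-12), the only call of 10 beside 10.9%. Ccne2 (0.90 ± 0.14), Cdkn1b (-0.83 ± 0.13), Ccnd2 (-0.66 ± 0.14), Ccna2 (0.65 ± 0.066) and Ccnb1 (0.20 ± 0.071) passed the adjusted p below 2-fold. Dux KD Zscan4 OE against Zscan4 OE gave 3 calls of 10 beside 11.1%. Cdkn2a was 8.10-fold higher (log2 fold change 3.02 ± 0.26 (SE), adjusted p = 1.13e-09), Ccnd2 3.29-fold (log2 fold change 1.72 ± 0.16 (SE), adjusted p = 5.3e-09) and Cdkn2b 2.38-fold (log2 fold change 1.25 ± 0.39 (SE), adjusted p = 0.0136). With the low Zscan4c counts given above, these may be differences between induced and uninduced cells, which was not tested. The replicates of Dux KD Zscan4 OE had the lowest Pearson r of all groups on log2 CPM (0.983), with a chi-square per degree of freedom of 26.1. Cdkn2a was at 16.7 and 10.6 CPM in them. The Cdkn2b call was lost without Dux KD Zscan4 OE replicate 1 (1.11) or Zscan4 OE replicate 2 (1.18), and Ccnd3 (0.85) reached 1.03 without Dux KD Zscan4 OE replicate 2. The 2-cell-like markers summed to 367 and 353 CPM in Dux KD RA against 545 and 474 in RA, and to 2.47 and 3.39 in Dux KD Zscan4 OE, with their part not tested.

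SE KO RA against RA gave 0 calls of 10 by edgeR, beside 17.6% of tested genes, and 0 by DESeq2, although 6 had an adjusted p under 0.05 (all tested genes 46%) and 8 an unadjusted p under 0.05. The largest was Cdkn2a (log2 fold change -0.95 ± 0.21 (SE), adjusted p = 0.000546), followed by Ccna2 (log2 fold change 0.72 ± 0.066 (SE), adjusted p = 1.46e-09). Without replicate 1, whose labels conflict, these were -0.95 and 0.72, with 0 calls again, and by library size only Cdkn2a just passed the 2-fold limit. SE KO Dux OE against Dux OE also gave 0 calls by edgeR and by DESeq2, beside 6.3%, with 4 genes at an adjusted p (all tested genes 25.4%) and 6 at an unadjusted p under 0.05. Ccne2 (log2 fold change 0.84 ± 0.15 (SE), adjusted p = 0.000164) and Ccnd2 (log2 fold change 0.72 ± 0.15 (SE), adjusted p = 0.000914) had the largest values. In SE KO Dux OE the 10 fibroblast markers summed to 140.3 and 145 CPM against 71.7 and 67.1 in Dux OE, and the 2-cell-like markers to 1562 and 1348. In SE KO RA the 10 fibroblast markers summed to 192 and 179 against 144 and 163 in RA, and the 2-cell-like markers to 55.4 and 53.1, and the part of these markers was not tested.

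The other genes of the cell cycle were followed with 77 genes in 9 lists, of which all 77 were tested. In RA against DMSO 7 were higher and 20 lower, where 20.6% and 10.4% of all tested genes were higher and lower, with 6 of 10 mitosis genes, 5 of 13 Rb and E2F genes and 3 of 7 upstream regulators among those that fell. Mycn, a transcription factor that promotes growth, fell most (-4.16 ± 0.10 on the log2 scale), and E2f2, an activator of S phase genes, was at -2.24 ± 0.12. Of the 4 other CDK inhibitors 3 rose, led by Cdkn1c, which encodes p57Kip2 (1.67 ± 0.14). The list median was -0.48 over the 77 genes and 0.10 over all tested genes.

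In PlaB against DMSO 13 were higher and 35 lower (all tested genes 32.3% and 26.6%), 62.3% of the 77, with a median of -0.83 against 0.22 over all tested genes. The Rb and E2F list fell in 11 of 13 genes with none higher, with E2f8, a repressor of the family, at -3.07 ± 0.11. Mitosis genes fell in 6 of 10, led by the proliferation marker Mki67 (-3.72 ± 0.10). Other cyclins rose in 5 of 8, while Ccng2 fell (-2.63 ± 0.16). Mdm2, which encodes the ubiquitin ligase for p53 that p19Arf inhibits, rose from 68.4 to 1395 CPM (4.35 ± 0.10), and Cdkn2d, which encodes p19Ink4d, rose as well (2.91 ± 0.13). Fzr1, which encodes the activator CDH1 of the anaphase-promoting complex that marks B-type cyclins for degradation, fell (-3.26 ± 0.12).

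Both genotypes given PlaB were higher than PlaB in the Rb and E2F list. These comparisons and that of PlaB with DMSO share the PlaB libraries, so their opposite directions are not independent. In Dux KD PlaB 13 of 13 were higher and in SE KO PlaB 12 of 13, with none lower in either. Over the 77 genes 34 were higher and 10 lower in Dux KD PlaB (all tested genes 26.1% and 28.8%), and 29 higher and 11 lower in SE KO PlaB (all tested genes 25.9% and 26.1%). Against DMSO only 4 were higher and 3 lower in Dux KD PlaB (all tested genes 7.53% and 4.14%), and 7 higher and 9 lower in SE KO PlaB (all tested genes 17.1% and 11%). Mki67 (3.17 ± 0.095) led the mitosis genes in the first and Foxm1, a transcription factor of G2 and M phase genes (3.25 ± 0.10), in the second. Fzr1 was higher in both (2.84 ± 0.12 and 3.04 ± 0.12), and Mdm2 (-2.53 ± 0.094 and -1.69 ± 0.091) and Cdkn2d (-2.38 ± 0.12 and -2.58 ± 0.12) were lower in both. The inhibitor Cdkn1c was higher in both (1.27 ± 0.21 and 3.93 ± 0.17).

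**Figure D4:**
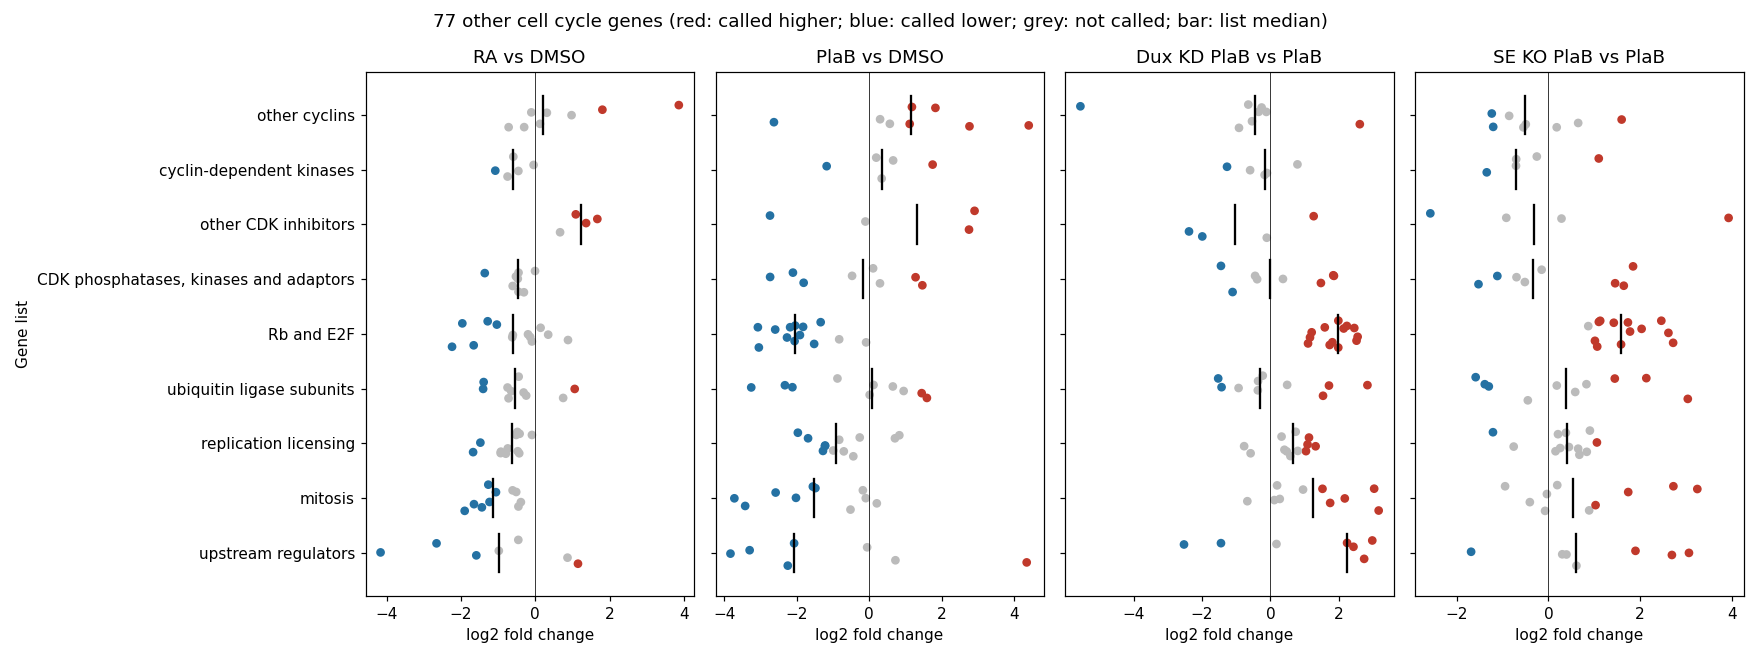
log2 fold change of 77 other cell cycle genes in 9 lists for 4 comparisons, with red and blue for genes called higher and lower, grey for genes not called and a black bar for the list median. The Rb and E2F genes sit left of 0 in PlaB against DMSO, where 11 of 13 are called lower, and right of 0 in both genotypes against PlaB. These comparisons share the PlaB libraries.

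Elsewhere fewer of the 77 genes were called, as were fewer of all tested genes. Against ESC, Zscan4 OE had 6 higher and 0 lower (all tested genes 7.25% and 4.39%), Dux OE 2 and 2 (7.38% and 2.12%), DuxR70A OE 8 and 3 (10.2% and 6.72%) and DMSO 9 and 3 (8.32% and 7.91%). DuxR70A OE against Dux OE had 4 higher and 1 lower (all tested genes 6.11% and 7.51%). The G1 kinase gene Cdk6 fell in Dux OE (-1.01 ± 0.13) and DuxR70A OE (-2.27 ± 0.13), was lower again in DuxR70A OE than in Dux OE (-1.25 ± 0.14), and was lower in DMSO than in ESC (-1.10 ± 0.13). Myc, which encodes a growth-promoting transcription factor, fell in Dux OE (-2.19 ± 0.14) and DuxR70A OE (-2.49 ± 0.14), and was lower in DMSO than in ESC as well (-1.03 ± 0.12). Rb1, encoding the retinoblastoma protein, was higher in Zscan4 OE (1.32 ± 0.15) and DuxR70A OE (1.38 ± 0.15). Ccnb3, encoding a B-type cyclin, had no count in either ESC library and means of 0.141 to 0.399 CPM in the 4 groups set against ESC, so no fold is given for it there.

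Against their own induction, Dux KD RA had 1 higher and 4 lower (all tested genes 6.41% and 4.53%), Dux KD Zscan4 OE 2 and 2 (5.78% and 5.35%) and SE KO RA 5 and 4 (6.57% and 11%). The lower genes in Dux KD Zscan4 OE include Ccnb3, at 0 CPM in both libraries against a mean of 0.270 in Zscan4 OE. SE KO Dux OE had 0 called by edgeR and by DESeq2 (2.46% and 3.84%), with 27 of the 77 at an adjusted p (all tested genes 25.4%) and 37 at an unadjusted p under 0.05. In Dux KD RA the fall of Ccnd1 came with lower Cdk6 (-1.12 ± 0.15), Cdc25b, encoding a CDK-activating phosphatase (-1.16 ± 0.13), and Cdkn1a, encoding p21 (-1.03 ± 0.12), and higher Bmi1, a Polycomb repressor known to act on the Cdkn2a locus (1.09 ± 0.16). In SE KO RA, Cdk6 (-1.78 ± 0.15) and Trp53 (-1.68 ± 0.10) were lower while Ube2c (1.23 ± 0.077) and Cdkn2c, encoding p18Ink4c (1.95 ± 0.25), were higher.

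The effect of the Dux knockdown was then compared between inductions by interaction terms over all genes. Terms with Zscan4 OE take the Dux KD Zscan4 OE libraries as overexpressing ZSCAN4, which their names alone give. Between PlaB and RA it differed for 6 of the 10 genes, beside 52.2% of tested genes. The largest differences were those of Cdkn1b, with 4.84 ± 0.21 on the log2 scale (adjusted p = 4.31e-17), and Ccnd1, with 3.64 ± 0.16 (adjusted p = 3.42e-17), which was higher with the knockdown in PlaB and lower in RA. Between PlaB and Zscan4 OE it differed for 6, beside 49.2%, among them Ccnd2, lower with the knockdown in PlaB and higher in Zscan4 OE (-2.79 ± 0.24, adjusted p = 7.68e-11). Between RA and Zscan4 OE it differed for 4, beside 12.3%, led by Cdkn2a (-3.36 ± 0.34, adjusted p = 2.82e-08). For the SE knockout the numbers were 7 between PlaB and RA (beside 49%), 6 between PlaB and Dux OE (beside 45.1%) and 3 between RA and Dux OE (beside 20.8%).

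Over the 15 comparisons, Cdkn2a was called in 10 (6 higher, 4 lower), Ccnd2 in 9 (2 and 7), Cdkn2b in 8 (5 and 3) and Ccnd1 in 7 (2 and 5). Ccna2 was called in 1 and Ccnb1 in 2. Several of these comparisons share a control group, so the counts are not independent. By the adjusted p without the 2-fold limit, the number of the 10 genes that passed was 8 in RA (all tested genes 58.9%) and 7 in PlaB (77.1%) against DMSO. Against ESC it was 6 in Zscan4 OE (38.6%), 4 in Dux OE (27.5%), 8 in DuxR70A OE (44.7%) and 9 in DMSO (43.6%). For DuxR70A OE against Dux OE it was 7 (38.7%). With the Dux knockdown it was 6 under RA (37.3%), 10 under PlaB (74.3%) and 5 under ZSCAN4 (32.6%), and with the SE knockout 6 under RA (46%), 10 under PlaB (72%) and 4 under DUX (25.4%). Against DMSO, Dux KD PlaB had 9 (34.7%) and SE KO PlaB 7 (56.1%).

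Among 13370 genes whose average log2 CPM was 1 or more, those whose log2 group means followed each member most closely over the 13 groups are given as a description. Cdkn1b was followed by Adipor2 (Pearson r = 0.984), Arf5 (0.982) and Zfp275 (0.977), and Cdkn2b by Htatip2 (0.974), Fbxo36 (0.959) and Prkar1a (0.956). For both genes the PlaB group, an extreme point, carries much of the range. Ccnb1 was closest to Qrsl1 (0.962), Pgam5 (0.959) and Gtf2h4 (0.959), Ccne1 to Psmb10 (0.949), Ddx39 (0.935) and Sae1 (0.935), and Ccnd1 to Cxxc5 (0.942), Gm13123 (0.911) and Cdc42ep4 (0.894). Ccne2 was closest to Srp54c (0.918), Fbxo30 (0.903) and Gm50240 (0.901), and Ccna2 to Rbm8a (0.892), Metap1 (0.890) and Ccnb1-ps (0.888), the last a pseudogene of Ccnb1 whose reads may not be separable from that gene. The closest genes were, for Cdkn2a, Kifap3 (0.888), Igfbp7 (0.834) and Ildr1 (0.834), for Ccnd3 Copz1 (0.874), Ssr2 (0.872) and Mavs (0.841), and for Ccnd2 Pcnx2 (0.832), Syt11 (0.798) and Map6 (0.781).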

How the data were processed

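RNA-seq libraries were made by polyA selection with the NEBNext Ultra II kit. The deposited table holds raw counts per gene for 26 libraries, with no normalization by the authors. Per the labels' processing notes, FastQC, Trimmomatic, STAR, featureCounts and DESeq2 were used on mm10, with versions, annotation and strand setting not given in the sources used here. How reads shared between near-identical genes were counted is also not given. Total counts were 14401452 to 39402840 per library.

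Counts were fitted with edgeR 4.0.16 (R 4.3.3) in 1 quasi-likelihood model of 13 groups with TMM factors, after filterByExpr (20953 of 55291 genes). Fold changes used a prior count of 0.125, and p-values were adjusted by Benjamini-Hochberg over all tested genes. Genes were called at an adjusted p under 0.05 with a change of 2-fold or more. Scripts were tested on simulated data. Alternatives were RLE factors, library size alone, no filter, a replicate block, separate fits of each pair of groups, DESeq2 1.42.0, adjusted p alone, the other control group, and leaving out each replicate. Samples were grouped by name. The members and lists were chosen with earlier results of these data known. In each comparison the called genes of each list with the largest rise and fall could be named, and the 3 genes closest to each member. Gene coordinates are those of the deposited table. Promoter sequences are from the RefSeq promoter table (GRCm38.p6), and end before the outermost GENCODE start where one lay close upstream.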

Additional observations from a re-analysis of the deposited data

Results flagged for a closer look

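Each result here is a difference between 2 inductions in the effect of the Dux knockdown or of the SE knockout, on the log2 scale (first effect minus second), that passed edgeR's interaction test at 2-fold or more. Groups of 2 libraries were too small to look for outlying samples, and no explanation was weighed. Differences with Zscan4 OE take the Dux KD Zscan4 OE libraries as overexpressing ZSCAN4 by their names alone.

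For the Dux knockdown, PlaB minus RA, the differences were -1.59 for Ccne1, -2.65 for Ccne2, 3.64 for Ccnd1, 4.84 for Cdkn1b, 3.23 for Cdkn2a and -1.72 for Cdkn2b. PlaB minus Zscan4 OE gave -1.74 for Ccne2, 2.01 for Ccnd1, -2.79 for Ccnd2, -1.58 for Ccnd3, 3.87 for Cdkn1b and -3.17 for Cdkn2b. RA minus Zscan4 OE gave -1.63 for Ccnd1, -2.38 for Ccnd2, -3.36 for Cdkn2a and -1.45 for Cdkn2b. The last lost its call without RA replicate 2 (-1.29), Dux KD RA replicate 2 (-1.30), Dux KD Zscan4 OE replicate 1 (-1.30), Zscan4 OE replicate 1 (-1.52) or Zscan4 OE replicate 2 (-1.37).

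For the SE knockout, PlaB minus RA, the differences were -1.05 for Ccna2, -1.33 for Ccnb1, -1.70 for Ccne1, 1.84 for Ccnd1, -1.73 for Ccnd3, 2.71 for Cdkn1b and 2.89 for Cdkn2a. Without SE KO RA replicate 1, whose labels conflict, all 7 of these kept their calls and 8 genes were called. PlaB minus Dux OE gave -1.55 for Ccne1, -2.06 for Ccne2, 1.81 for Ccnd1, 3.03 for Cdkn1b, 2.29 for Cdkn2a and -1.38 for Cdkn2b. RA minus Dux OE gave 1.09 for Ccna2, -1.47 for Ccne2 and 1.08 for Ccnd3, the last at 0.98 and not called without SE KO Dux OE replicate 1. The Ccna2 difference between PlaB and RA fell short of 2-fold without the low-count filter (-0.95). The wild-type PlaB libraries enter 4 of the 6 sets of differences.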

How the results depend on the processing

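Among the counts of called genes under the alternatives, 374 stayed within 1.5 times the main count and 38 moved. The cause of a change was not tested, except that adjusted p alone drops the 2-fold limit and that fits without a library hold fewer samples. On adjusted p alone the members called were 8 in RA and 9 in DMSO, 4 in Dux OE, 8 in DuxR70A OE, 7 in DuxR70A OE against Dux OE, 6 in Dux KD RA, 5 in Dux KD Zscan4 OE, 6 in SE KO RA, 4 in SE KO Dux OE, and against DMSO 9 in Dux KD PlaB and 7 in SE KO PlaB. The other cell cycle genes called were then 67 in RA, 45 in Zscan4 OE, 34 in Dux OE, 49 in DuxR70A OE, 41 in DuxR70A OE against Dux OE, 39 in Dux KD RA, 69 in Dux KD PlaB, 42 in Dux KD Zscan4 OE, 48 in SE KO RA, 68 in SE KO PlaB, 27 in SE KO Dux OE, 51 in DMSO, and against DMSO 44 in Dux KD PlaB and 56 in SE KO PlaB. With library size only, SE KO RA had 1 member called. With DMSO as control, Zscan4 OE had 2 and Dux OE 4 members called and Dux OE had 8 other cell cycle genes, against 2 when only both groups were fitted. Leaving out each replicate gave 1 to 3 other cell cycle genes in Dux OE, 2 to 5 in DuxR70A OE against Dux OE, 0 to 2 in SE KO Dux OE, 1 to 2 members in DMSO against ESC, and 3 to 7 members for the Dux knockdown effect in RA against Zscan4 OE (7 without Dux KD Zscan4 OE replicate 2).

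Apart from Cdkn2a in Zscan4 OE, every value that changed sign was uncalled in the main fit. Values on the log2 scale were 0.062 for Ccna2 in PlaB against DMSO and 0.0045 for Ccne2 in Dux KD Zscan4 OE with RLE factors, and 0.062 for Ccna2 in PlaB against DMSO and 0.0050 for Ccne2 in Dux KD Zscan4 OE with DESeq2. By library size only they were 0.17 for Ccna2 in PlaB against DMSO, 0.11 for Ccna2 in Zscan4 OE, 0.0039 for Ccnb1 in Dux OE, 0.0097 for Ccne2 in DuxR70A OE against Dux OE, 0.11 for Ccnd3 in DuxR70A OE against Dux OE, -0.054 for Ccna2 in Dux KD Zscan4 OE, 0.019 for Ccne1 in SE KO Dux OE, 0.065 for Ccnb1 in SE KO PlaB against DMSO and 0.045 for Ccne2 in SE KO PlaB against DMSO. Without the filter they were -0.12 for Ccnd3 in PlaB against DMSO, 0.0037 for Ccnd3 in DuxR70A OE against Dux OE, -0.012 for Ccnd3 in Dux KD RA, -0.041 for Ccna2 in Dux KD Zscan4 OE, 0.065 for Ccne1 in SE KO Dux OE and 0.042 for Cdkn1b in SE KO Dux OE. With ESC as control they were 0.73 for Ccne2 in RA and -0.38 for Ccnd3 in PlaB. With DMSO as control they were 0.14 for Ccna2 in Zscan4 OE, -0.30 for Cdkn1b in Zscan4 OE, 0.19 for Cdkn2a in Zscan4 OE, 1.49 for Cdkn2b in Zscan4 OE, 0.094 for Ccna2 in Dux OE, 0.45 for Ccnb1 in Dux OE, -0.31 for Cdkn1b in Dux OE and 0.21 for Ccnb1 in DuxR70A OE. With only both groups fitted they were 0.0020 for Ccne2 in Dux KD Zscan4 OE and 0.022 for Ccne1 in SE KO Dux OE. Without each replicate the ranges were -0.032 to 0.12 for Ccnd3 in PlaB against DMSO, -0.83 to 0.076 for Cdkn2a in PlaB against DMSO, -0.21 to 0.036 for Ccne2 in Dux OE, -0.0052 to 0.12 for Cdkn1b in Dux OE, -0.11 to 0.26 for Cdkn2b in DuxR70A OE, -0.25 to 0.077 for Ccnd3 in DuxR70A OE against Dux OE, -0.11 to 0.075 for Ccne1 in SE KO Dux OE, -0.11 to 0.020 for Cdkn1b in SE KO Dux OE, -0.35 to 0.063 for Cdkn2b in SE KO Dux OE, -0.13 to 1.3e-06 for Ccnb1 in SE KO PlaB against DMSO, -0.36 to 0.13 for Ccne2 in SE KO PlaB against DMSO, -0.073 to 0.10 for Ccnd3 in Dux KD RA, -0.019 to 0.071 for Ccna2 in Dux KD Zscan4 OE, -0.15 to 0.14 for Ccne2 in Dux KD Zscan4 OE and -0.19 to 0.39 for Cdkn1b in Dux KD Zscan4 OE.

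With the replicate number as a block, the member counts of all 15 comparisons stayed the same, at 5 for RA against DMSO and 6 for PlaB against DMSO, for example, and Dux OE had 3 other cell cycle genes in place of 4. Same-numbered libraries showed no shared deviation over all tested genes (r from -0.0473 to 0.0237). Counting error in genes at low counts could hide one, so whether the numbers pair the samples is not settled. By library size only the median of all genes moved by 0.19 in RA, 0.26 in PlaB and -0.20 in Dux KD PlaB (log2), and calls higher and lower were 5047 and 1525 in RA (main 4319 and 2180), 1969 and 603 in Zscan4 OE (1520 and 919), 2999 and 868 in DuxR70A OE (2143 and 1407) and 1901 and 1329 in DuxR70A OE against Dux OE (1280 and 1574). Without the filter SE KO Dux OE had 654 and 652 (515 and 804). With DMSO as control, all genes called were 3811 in Dux OE (1992) and 1897 in DuxR70A OE (3550), and SE KO Dux OE had 803 without Dux OE replicate 2 (1319). At these depths Cdkn2b in DMSO, with 9 and 1 counts, limits every fold against it.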
